A study of Mus musculus with 13 samples.

Results

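The genes described here are 8 markers of blood vessel endothelium, Pecam1, Cdh5, Emcn, Vwf, Nos3, Tek, Kdr and Flt1, and 2 genes of the vascular endothelial growth factor family, Vegfa and Vegfb. They were chosen by name, with earlier results of these data known. All 10 were found among the 34419 genes of the table and passed the filter on low counts that left 17779 genes to test. RNA-seq had been performed on gluteal WAT, a subcutaneous white adipose depot, of male C57BL/6J mice kept at 22°C (n = 7) or 29°C (n = 6) from birth until they were 13 weeks old. In both groups the posterior hair was removed after weaning, so that no mouse in the comparison kept its full coat. Nesting material was withheld, and no mouse shared its cage. The comparison asks how white adipose tissue differs between cool housing and housing near thermoneutrality. Each library came from the depot of a single mouse.

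Endothelial cells line every vessel and form the barrier through which nutrients, hormones and fatty acids reach adipocytes. VEGF-A, which adipocytes secrete, acts on the receptor VEGFR2 (encoded by Kdr) to drive sprouting, proliferation and permeability, whereas VEGFR1 (encoded by Flt1) binds VEGF-A tightly with weak kinase activity and limits its supply to VEGFR2. VEGF-B binds VEGFR1 but not VEGFR2, and adipose vessels are known to expand or regress with the size and the thermogenic state of the fat they serve.

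Stretches upstream of the start sites are shown for the 4 genes of this ligand and receptor axis, so that the receptors can be read beside their ligands. The sequences are the 250 bases before the RefSeq start site on build GRCm38.p6, each on the minus strand, and lie outside the transcribed gene as RefSeq annotates it. Capitals mark GGAA or its reverse complement TTCC, the core bound by ETS factors, in the receptors, and the GC box GGGCGG or CCGCCC in the ligands.
Kdr, chr5:75978456-75978705: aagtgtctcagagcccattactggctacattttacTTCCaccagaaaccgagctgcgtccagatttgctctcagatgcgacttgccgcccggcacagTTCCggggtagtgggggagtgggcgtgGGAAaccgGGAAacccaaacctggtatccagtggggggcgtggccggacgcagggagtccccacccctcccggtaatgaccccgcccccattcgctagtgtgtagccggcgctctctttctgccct
Flt1, chr5:147726012-147726261: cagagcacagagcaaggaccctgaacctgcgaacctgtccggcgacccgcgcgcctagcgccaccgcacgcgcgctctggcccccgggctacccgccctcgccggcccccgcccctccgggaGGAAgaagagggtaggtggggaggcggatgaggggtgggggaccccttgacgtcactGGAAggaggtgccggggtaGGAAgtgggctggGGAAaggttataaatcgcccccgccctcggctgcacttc
Vegfa, chr17:46032378-46032627: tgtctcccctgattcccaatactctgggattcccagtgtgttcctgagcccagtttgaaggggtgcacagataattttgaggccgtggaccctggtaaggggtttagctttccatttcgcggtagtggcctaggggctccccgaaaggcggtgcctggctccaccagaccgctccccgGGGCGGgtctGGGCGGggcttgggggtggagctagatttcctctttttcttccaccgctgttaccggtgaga
Vegfb, chr19:6987652-6987901: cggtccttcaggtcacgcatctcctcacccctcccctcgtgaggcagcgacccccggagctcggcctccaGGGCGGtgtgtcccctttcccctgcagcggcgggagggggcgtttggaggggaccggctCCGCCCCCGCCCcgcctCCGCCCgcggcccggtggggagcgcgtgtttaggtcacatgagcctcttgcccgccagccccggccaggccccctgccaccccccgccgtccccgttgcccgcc

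On either strand, the Kdr window held the ETS core 4 times and the Flt1 window held it 4 times, against 6 matches upstream of Vegfa and 1 upstream of Vegfb. This short motif was present in 93.4% of the 32851 RefSeq windows of the same length, with a median of 3 matches, so its presence did not set the receptors apart. The GC box was present in 32.7% of windows and occurred 2 times upstream of Kdr, 3 times upstream of Flt1, 2 times upstream of Vegfa and 4 times upstream of Vegfb, where neighbouring matches touch. The core bound by hypoxia-inducible factors, ACGTG or CACGT, was present in 16.6% of windows and in none of these 4, although a second RefSeq start of Vegfa had 1 match. The TATA box, TATAAA or TTTATA, was present in 12.4% of windows and, among these 4, in that of Flt1 with 1 match. Of the 10 genes, 6 matched a RefSeq window. Neither RefSeq start of Vegfa was found in the GENCODE transcripts of the gene, and letters in a window say nothing about binding in this tissue.

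None of the 10 genes differed between temperatures at P-adj below 0.1 (edgeR quasi-likelihood test, Benjamini-Hochberg adjustment over all 17779 genes), against 1.94% of all genes tested. An unadjusted p below 0.05 was reached by 3 of the 10, Emcn, Vegfa and Vegfb, each with the lower mean at 22°C, against 18.5% of all genes tested in either direction and 8.2% in that direction. DESeq2 likewise called 0 of the 10, against 10.2% of its tested genes. The log2 fold change of 22°C relative to 29°C was below 0 for 8 of the 10 genes, against 48.4% of all genes, and its median was −0.15, against 0.007 over all genes. The endothelial markers covary across mice, as described further on, so their shared sign is not a count of independent genes. In every one of the 10 the 2 groups overlapped, and groups without overlap were found for 1.24% of all genes tested. In bulk tissue, fewer endothelial cells and less RNA per cell cannot be told apart.

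**Figure D1:**
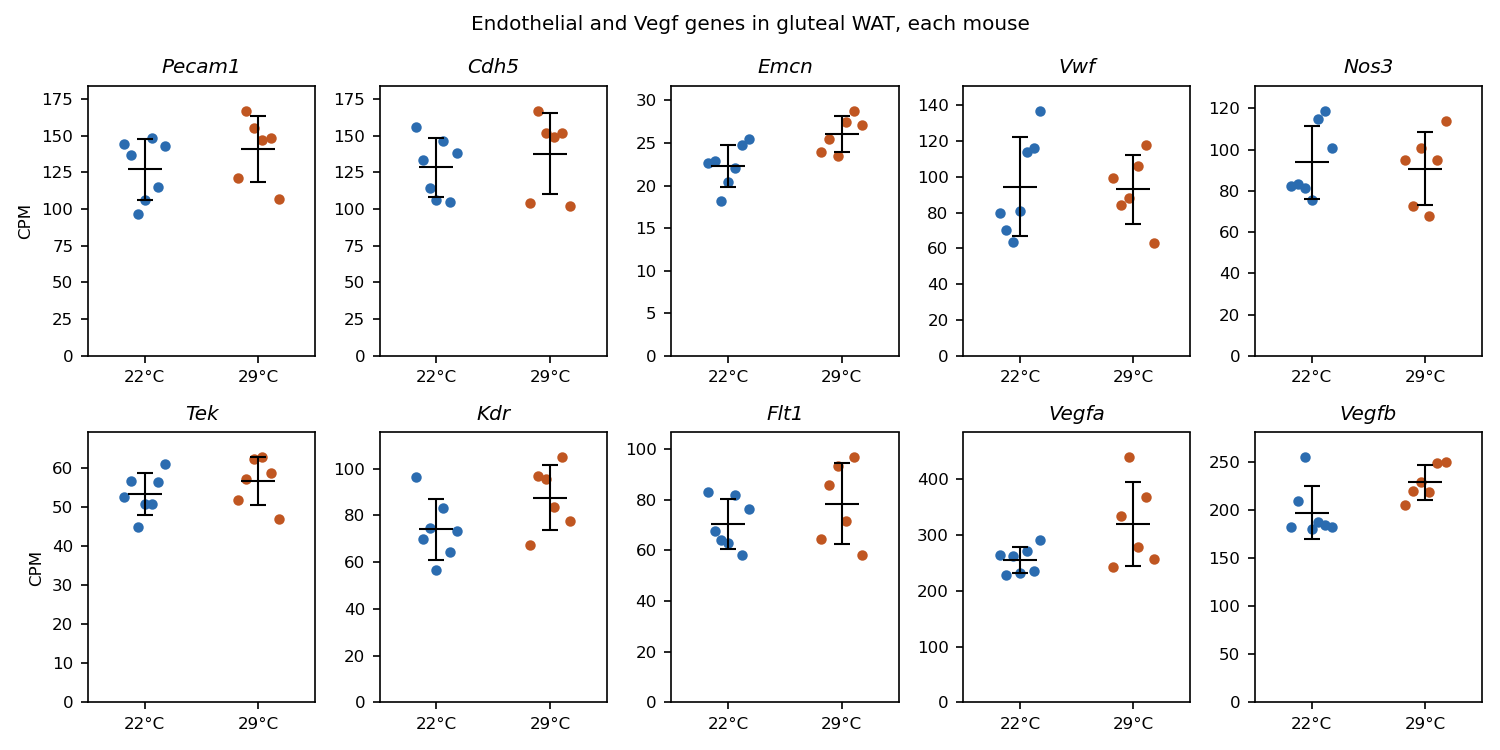
Counts scaled to a common library total (CPM, vertical axes starting at 0) of each of the 10 genes in each mouse at 22°C (blue, n = 7) and 29°C (orange, n = 6), with the mean and SD in black. The groups overlap in every panel, and the single 22°C mouse high in the Vegfb panel, at 255 CPM, is replicate 3.

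**Figure D2:**
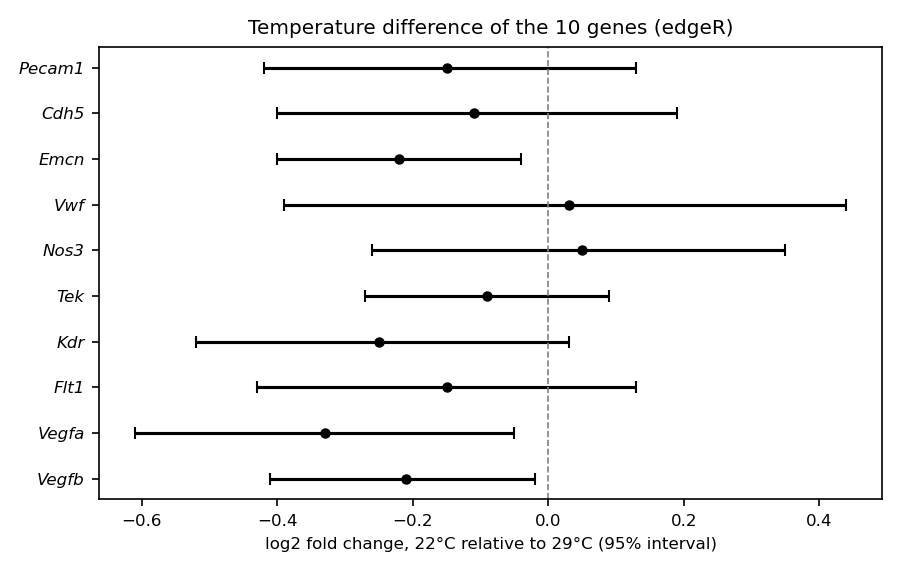
Log2 fold change of 22°C relative to 29°C for the 10 genes (points) with 95% intervals (bars) from edgeR. The intervals of Emcn, Vegfa and Vegfb lie below 0, without allowance for the number of genes tested, and those of the other genes cross 0.

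Vegfa encodes the main growth factor for sprouting vessels. In CPM, its lowest, median and highest values were 229, 262 and 291 at 22°C, against 242, 307 and 440 at 29°C. The 29°C mice were the more scattered, with a coefficient of variation of 23.5% against 9.11%, and 3 of them lay above every 22°C mouse while 3 22°C mice lay below every 29°C mouse. The means were 255 ± 23.2 CPM (SD, n = 7) and 320 ± 75.4 CPM (SD, n = 6), a log2 fold change of −0.33 (SE 0.13, 95% interval −0.61 to −0.05, edgeR P-adj = 0.212). The highest value, 440 CPM, was that of 29°C replicate 3, and without that mouse the log2 fold change was −0.215 (edgeR P-adj = 0.388).

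Vegfb encodes the ligand that acts through VEGFR1 and not VEGFR2. It measured 180, 184 and 255 CPM as the lowest, median and highest at 22°C and 205, 225 and 250 CPM at 29°C. At 22°C, 5 mice lay below every 29°C mouse, but replicate 3 of that group had the highest Vegfb of all 13 libraries. The difference, −0.21 on the log2 scale (SE 0.09, interval −0.41 to −0.02), did not pass the test (edgeR P-adj = 0.227). This is the call that depended on a single library: without 22°C replicate 3 the log2 fold change was −0.29 and the adjusted p 0.0989, below the threshold of 0.1.

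VEGFR2, the main signalling receptor of VEGF-A, is encoded by Kdr, with 56.5, 73.4 and 96.3 CPM (lowest, median, highest) at 22°C against 67.2, 89.6 and 105 CPM at 29°C. The 22°C group reached lower and the 29°C group higher, with 2 mice of each outside the range of the other. The log2 fold change was −0.25 (SE 0.13, 95% interval −0.52 to 0.03, edgeR P-adj = 0.32). Flt1, encoding VEGFR1, had 58.0, 67.6 and 83.0 CPM at 22°C, whereas the 29°C mice had 58.0, 78.6 and 96.8 CPM. The lowest values of the 2 groups were equal after rounding, with 1 22°C mouse below every 29°C mouse, and 3 29°C mice lay above every 22°C mouse. Its log2 fold change was −0.15 (SE 0.13, interval −0.43 to 0.13, edgeR P-adj = 0.574).

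Tek encodes TIE2, the receptor of the angiopoietins, which keeps vessels quiescent. Its 44.9, 52.7 and 61.1 CPM (lowest, median and highest at 22°C) compared with 46.9, 58.1 and 62.8 CPM at 29°C, and the ranges nearly coincided. With a log2 fold change of −0.09 (SE 0.08, interval −0.27 to 0.09, edgeR P-adj = 0.612), Tek also had the smallest ratio of highest to lowest library of the 10 genes, 1.40.

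The junctional and surface markers gave the same picture of large overlap. PECAM-1 (CD31), the adhesion molecule most used to stain vessels, is encoded by Pecam1, with 96.5, 137 and 148 CPM (lowest, median, highest) at 22°C and 107, 147 and 167 CPM at 29°C. Cdh5, encoding VE-cadherin of the adherens junctions, had 105, 133 and 156 CPM at 22°C and 102, 150 and 167 CPM at 29°C. The lowest Cdh5 values, of 102 and 104 CPM, belonged to 29°C mice, and so did the highest. Their log2 fold changes were −0.15 (SE 0.13, interval −0.42 to 0.13, edgeR P-adj = 0.572) for Pecam1 and −0.11 (SE 0.14, interval −0.40 to 0.19, edgeR P-adj = 0.727) for Cdh5.

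Emcn encodes endomucin, a sialomucin of capillary and venous endothelium. It had 18.2, 22.6 and 25.5 CPM as lowest, median and highest at 22°C and 23.5, 26.3 and 28.8 CPM at 29°C. This was the clearest separation among the 8 endothelial markers, since 5 of the 22°C mice lay below every 29°C mouse and 4 of the 29°C mice above every 22°C mouse. Means of 22.3 ± 2.48 CPM (SD, n = 7) and 26.0 ± 2.13 CPM (SD, n = 6) gave a log2 fold change of −0.22 (SE 0.08, interval −0.40 to −0.04, edgeR unadjusted p = 0.0182, P-adj = 0.193). The value depended on the libraries with lower totals, all of them at 22°C: with the cluster of totals as a covariate it was −0.05, and in the higher cluster only, 2 mice against 6, −0.06.

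Vwf and Nos3 did not take the direction of the others. Vwf encodes von Willebrand factor, the haemostatic protein stored in Weibel-Palade bodies, and had 63.7, 80.8 and 137 CPM as lowest, median and highest at 22°C against 62.8, 93.8 and 118 CPM at 29°C. It had the widest spread of the 10 genes, with a ratio of 2.18 between the highest and the lowest library, and the extremes stood 1 in each group. Its log2 fold change of 0.03 (SE 0.19, interval −0.39 to 0.44, edgeR P-adj = 0.962) turned negative under 8 of 25 alternatives, and it was 0.45 with the cluster of totals as a covariate (P-adj = 0.423).

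Nos3 encodes endothelial nitric oxide synthase, which relaxes vessels. Values of 75.6, 83.2 and 119 CPM at 22°C compared with 67.7, 94.9 and 114 CPM at 29°C, with 2 22°C mice above and 2 29°C mice below all of the other group. The log2 fold change was 0.05 (SE 0.14, interval −0.26 to 0.35, edgeR P-adj = 0.892), and it changed sign when 22°C replicate 5 or 6 or 29°C replicate 2 or 4 was left out, reaching −0.03. Part of the Nos3 count is uncertain: 25.2% of its exonic length overlaps the antisense gene Gm15587 and 7.12% the gene Atg9b on the opposite strand, and whether the counting used strand is not given in the sources used here.

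Ratios of 2 genes within a library do not depend on how libraries were scaled, and 4 pairs were compared (log2 ratios, exact permutation over the 1716 ways to split the mice, two-sided, Benjamini-Hochberg over the 4). The ratio of Flt1 to Kdr, the decoy-like receptor over the signalling receptor, was −0.06 ± 0.14 at 22°C (SD, n = 7) and −0.17 ± 0.14 at 29°C (SD, n = 6). Their difference was 0.11 (95% interval −0.05 to 0.28), and 3 22°C mice had a ratio above every 29°C mouse (exact p = 0.188). Vegfa over Vegfb gave 0.38 ± 0.23 and 0.46 ± 0.31, a difference of −0.08 (interval −0.41 to 0.25, exact p = 0.614) that turned to 0.02 without 29°C replicate 3 and to 0.06 in the libraries of the higher cluster of totals. Nos3 over Cdh5 differed by 0.14 (interval −0.40 to 0.68, exact p = 0.565), and Vwf over Pecam1 by 0.15 (interval −0.26 to 0.56, exact p = 0.43). In the higher cluster of totals, 2 mice against 6, these differences were 0.46 and 0.59 (exact permutation P-adj = 0.429 and 0.143), and that of Nos3 over Cdh5 ran from 0.02 without 29°C replicate 2 to 0.29 without 29°C replicate 6. The adjusted p was 0.614 for each pair, so no shift in balance was detected, and the intervals leave room for differences of these widths.

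Divided by the length of the longest coding transcript (GENCODE vM21), the 10 genes fell into an order over the 13 libraries. Vegfb was highest at 165 ± 21.7 CPM per kb (SD, n = 13) and Vegfa next at 82.6 ± 17.8, each above the following gene in 13 of 13 libraries. Pecam1 at 38.8 and Cdh5 at 33.2 CPM per kb differed by less than their SD, and Nos3 stood at 22.4. Kdr at 13.6, Tek at 11.8, Flt1 at 10.7, Vwf at 10.6 and Emcn at 9.29 CPM per kb formed a group in which no gene exceeded its neighbour by the larger SD. When the whole exonic length was used in place of the transcript, Pecam1 moved below Cdh5 and Nos3, to 21.4 CPM per kb, while Vegfb and Vegfa stayed first and second. The low group then separated further: Tek, at 11.6 CPM per kb, was above Kdr, at 8.90, in 13 of 13 libraries, and the gaps from Kdr to Vwf (5.84) and from Flt1 (5.49) to Emcn (4.44) also exceeded the larger SD.

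The endothelial markers were next compared with the rest of the endothelium. An endothelial score was taken as the mean log2 CPM of 21 pan-endothelial genes that are not among the 10, such as Tie1, Ptprb and Ushbp1. The score averaged 4.91 ± 0.18 at 22°C (SD, range 4.57 to 5.10) and 5.04 ± 0.23 at 29°C (range 4.71 to 5.28), so the groups overlapped. Across the 13 mice Pecam1 followed it most closely (Pearson r = 0.95, Spearman rho = 0.93, permutation P-adj = 0.0002 over 20 relations, from the smallest p that 100000 resamples can give). Cdh5 (r = 0.86, rho = 0.82, permutation P-adj = 0.0024) and Flt1 (r = 0.84, rho = 0.87, permutation P-adj = 0.00293) came next. Tek had r = 0.79 and rho = 0.74 (permutation P-adj = 0.0059).

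The growth factor Vegfa also tracked the score (r = 0.67, rho = 0.80, permutation P-adj = 0.0426), and so did Kdr (r = 0.66, rho = 0.69, permutation P-adj = 0.0485). Emcn and Vwf reached r = 0.56 each (permutation P-adj = 0.105), whereas Nos3 (r = −0.10) and Vegfb (r = −0.11, permutation P-adj = 0.739 for each) showed no relation that could be detected. Leaving out the 2 mice farthest from the median score gave r of 0.92 for Pecam1, 0.89 for Cdh5, 0.90 for Flt1, 0.74 for Tek, 0.74 for Vegfa and 0.71 for Kdr, whose adjusted p was then 0.054. Temperature is a group in which both measures could differ, so the relations were recomputed within each. By Pearson r, Pecam1 held within both (r = 0.95 at 22°C, exact permutation P-adj = 0.0159, and r = 0.97 at 29°C, P-adj = 0.0486). By Spearman rho it passed in neither (exact permutation P-adj = 0.246 at 22°C and 0.167 at 29°C). Cdh5 had r = 0.70 and 0.97, Flt1 0.67 and 0.92, Tek 0.74 and 0.80, Kdr 0.35 and 0.87, and Vegfa 0.36 and 0.77 at 22°C and 29°C, of which Cdh5 and Flt1 at 29°C passed (exact permutation P-adj = 0.0486 for each). By Spearman rho, Cdh5 and Flt1 at 29°C did not pass (exact permutation P-adj = 0.167 and 0.233). Tek, Kdr and Vegfa did not pass within either temperature.

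**Figure D3:**
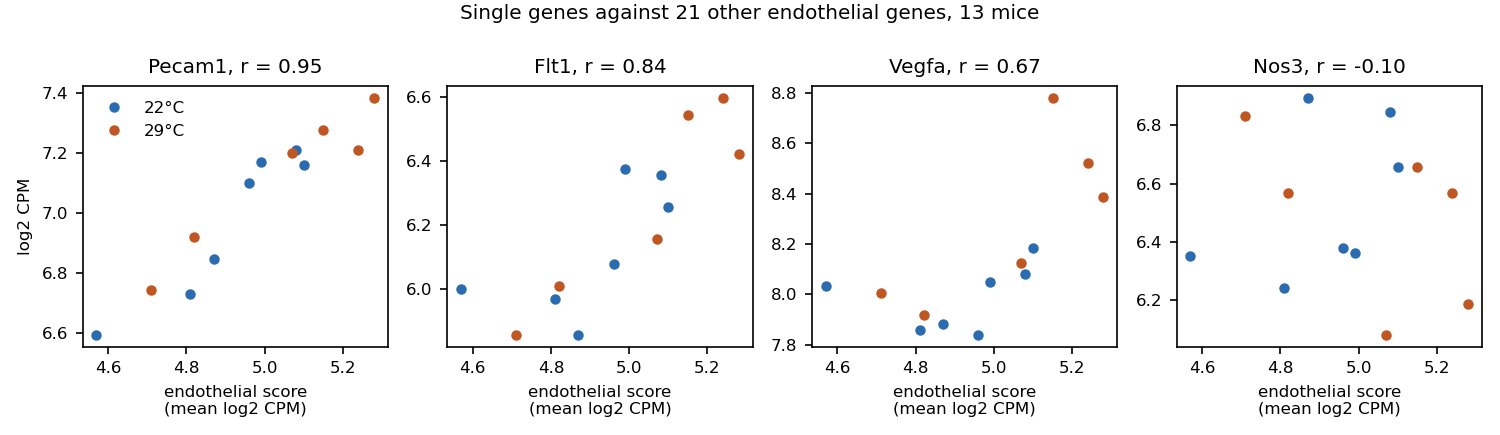
Log2 CPM of Pecam1, Flt1, Vegfa and Nos3 (vertical axes) against the endothelial score, the mean log2 CPM of 21 other endothelial genes (horizontal axes), in the 13 mice at 22°C (blue) and 29°C (orange). Pecam1 rises along the score with r = 0.95, while Nos3 scatters with r = −0.10.

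**Figure D4:**
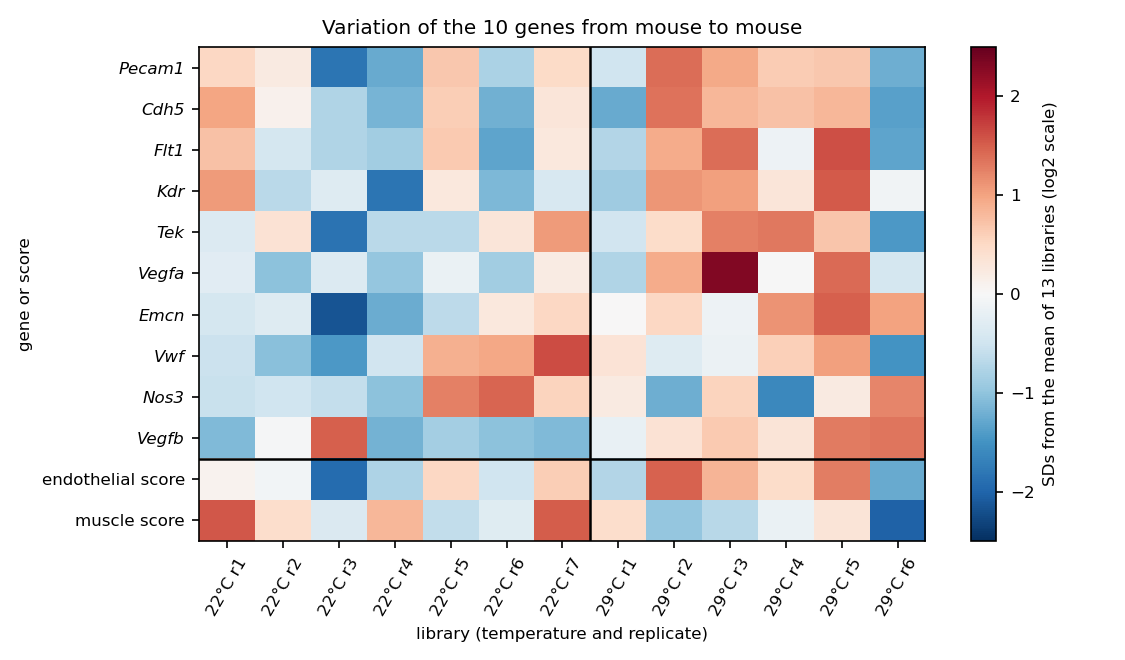
Each gene's log2 CPM in each library, in SDs from its mean over 13 libraries (red above, blue below), with the endothelial and muscle scores in the bottom rows and a line between 22°C and 29°C. 22°C replicate 3 is low in most endothelial genes and high in Vegfb, and Nos3, highest in 22°C replicate 6 at 119 CPM, does not follow Pecam1.

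The genes most like each member over the 13 libraries, taken from all genes tested by the Pearson r of log2 CPM, are given as descriptions, since the points share libraries and the genes were picked for their r. Cdh5 was most like Sncaip (r = 0.971), Ushbp1 (0.961) and Kank3 (0.944). Flt1 was most like Adgrl4 (0.931), Arap3 (0.924) and Ushbp1 (0.922), and Pecam1 like Gbp9 (0.917), Sema3g (0.916) and Sncaip (0.914). Among the 10 themselves, Pecam1 and Cdh5 were each other's nearest (0.907), Flt1 was nearest to Cdh5 (0.894), Kdr to Flt1 (0.842) and Vegfa to Flt1 (0.828).

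Other members had neighbours of a different kind. Vwf was most like Selp (0.879), which encodes P-selectin, another protein of Weibel-Palade bodies, then Adgrg6 (0.878) and Eme2 (0.843). Vegfb was most like Lsamp (0.920), Aoc3 (0.911), an amine oxidase abundant on adipocytes, and Gne (0.903), and its nearest member, Kdr, reached 0.428. Nos3 was most like its own antisense partner Gm15587 (0.973), then Srebf1 (0.866), a transcription factor of fatty acid synthesis, and Dusp4 (0.828), and its nearest member was Vwf at 0.290. Emcn was most like Pop1 (0.900), Gm44317 (0.899) and Apc2 (0.882). Kdr was most like Fcho2 (0.919), Dgke (0.907) and Efna1 (0.892), Tek like Ppp1r14a (0.918), Kirrel3 (0.888) and Pigb (0.875), and Vegfa like Ptch1 (0.875), Srpk2 (0.844) and 2310043M15Rik (0.840).

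Beyond the 10 genes, 13 lists of vascular genes held 139 further genes, of which 138 were tested. At P-adj below 0.1 (edgeR), none of these was called higher at 22°C, against 0.731% of all genes, and 7 were called lower, against 1.21% of all genes. With DESeq2 15 were called, against 10.2% of all the genes it tested. The lists were written with earlier results of these data known, so the shares called are not an independent comparison. The log2 fold change was below 0 for 96 of the 138, against 48.4% of all genes, with a median of −0.11. Signs of genes that covary are not independent counts. Among the ligands and receptors of the VEGF family, with the 4 genes above included, all 10 had values below 0, though that of Vegfd was −0.00 (SE 0.09). In this list 0 were called, and the median was −0.20. The abundant co-receptor Nrp1 had −0.12 (SE 0.09). In the angiopoietin and TIE list all 6 were below 0, 0 were called and the median was −0.17, with −0.22 (SE 0.13) for the phosphatase gene Ptprb and −0.08 (SE 0.13) for Tie1. Angpt2, which encodes the TIE2 ligand that loosens vessels and is singled out here after its values were seen, had −0.59 (SE 0.16, edgeR P-adj = 0.113).

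In the list of nitric oxide signalling, 0 of 12 genes were called, and the most abundant, Cav1, whose product caveolin-1 binds and restrains endothelial nitric oxide synthase, had −0.43 (SE 0.12, edgeR P-adj = 0.127). Cav1 averaged 2510 CPM at 22°C and 3372 CPM at 29°C, far above the 128 and 138 CPM of Cdh5. Which cells of the depot carried it was not tested. Of 24 pan-endothelial genes, 3 of them members, 20 had values below 0 and 0 were called, with a median of −0.17. The capillary and lipid handling list of 11 genes (median −0.05), the arterial and Notch list of 13 (−0.09), the lymphatic list of 8 (−0.05) and the mural cell list of 12 (−0.09) also held 0 called genes. The most abundant genes of the capillary list, Fabp4 and Cd36, are also in the list of adipocyte genes.

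The 7 genes called lower at 22°C lay in 5 lists. In the list of Weibel-Palade body and haemostasis genes, 2 of 12 were called lower, and both encode inhibitors of clotting rather than stored proteins. Thbd, encoding thrombomodulin, had 144, 162 and 239 CPM as lowest, median and highest at 22°C and 295, 312 and 393 CPM at 29°C. Tfpi, encoding tissue factor pathway inhibitor, averaged 25.9 ± 3.12 CPM at 22°C (SD, n = 7) and 43.3 ± 1.97 CPM at 29°C (SD, n = 6). In both, every 22°C mouse lay below every 29°C mouse, unlike in Vwf of the same list. The log2 fold changes were −0.91 for Thbd (SE 0.12, edgeR P-adj = 0.00703) and −0.74 for Tfpi (SE 0.08, edgeR P-adj = 0.00129).

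In the list of 10 genes written as inhibitors of angiogenesis, 2 were called lower at 22°C. Col18a1, the collagen gene from which endostatin is released, averaged 150 ± 28.9 CPM at 22°C and 233 ± 30.0 CPM at 29°C (SD) without overlap, a log2 fold change of −0.63 (SE 0.13, edgeR P-adj = 0.0649). Chrdl1, which encodes a BMP antagonist, averaged 85.1 ± 37.1 and 181 ± 51.8 CPM with overlap (−1.09, SE 0.28, edgeR P-adj = 0.0952). Its place in this list is a choice of the list, and whether it inhibits angiogenesis here was not tested. Vcam1, the adhesion molecule for leukocytes, was the 1 gene of 7 in the venous list called lower at 22°C (−0.55, SE 0.14, edgeR P-adj = 0.0896). Lep, the adipocyte hormone leptin, was the 1 of 13 growth factors and chemokines (−0.78, SE 0.15, edgeR P-adj = 0.0564). P4ha1, a collagen prolyl hydroxylase, was the 1 of 18 tested hypoxia factors and targets (−0.44, SE 0.11, edgeR P-adj = 0.0873). In this list 10 values lay below 0 and 8 above, from −0.64 for Adm (SE 0.21) to 1.67 for Egln3 (SE 0.56). An unadjusted p below 0.05 (edgeR) was reached by 10 of the 18, against 18.5% of all genes tested. These went both ways: Egln3, Hif1an, Slc2a1, Pgk1, Ankrd37 and Pdk1 lay above 0, and Adm, Bnip3, Ero1a and P4ha1 below. A contribution of muscle RNA to these values was not tested.

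The number of these calls rested on single libraries: it was 2 without 29°C replicate 2, 3 without 29°C replicate 1, 3 or 4, and 4 without 22°C replicate 1, 2, 3 or 5 or 29°C replicate 5 or 6. Col18a1 and Lep passed under 17 of 25 alternatives each, P4ha1 under 8, and Chrdl1 and Vcam1 under 7 each. Tfpi passed under all 25. Thbd passed under 23 of them, and under the other two, which handle library totals, its log2 fold change was −1.04 and −1.05 (P-adj = 0.118 and 0.126).

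**Figure D5:**
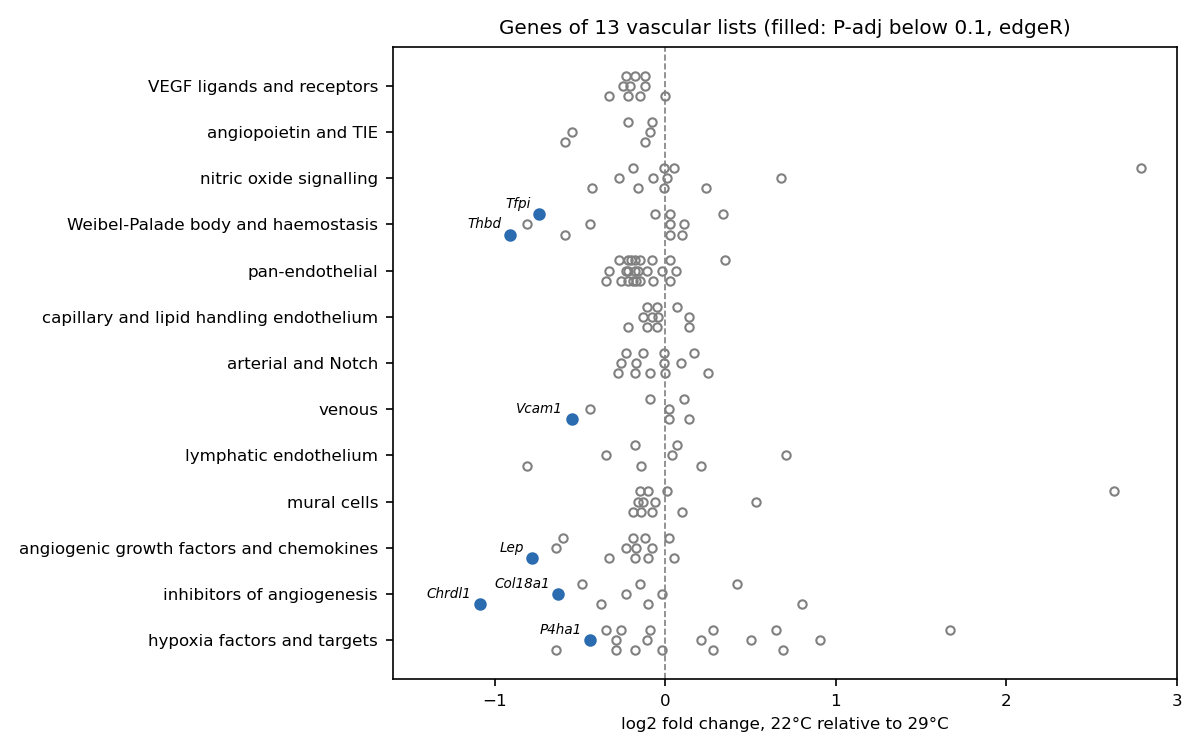
Log2 fold change of 22°C relative to 29°C (horizontal axis) for the tested genes of 13 vascular lists (rows), with filled points for genes past P-adj 0.1 in edgeR and open points for the rest; a gene in 2 lists appears in both. All 7 filled genes lie to the left of 0, and none of the 10 members is filled.

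Several measures of the libraries moved with the groups. Totals ran from 22356637 to 25245785 counts with a median of 24987169, and the 5 lowest, of 22857079 or fewer, were all at 22°C. With this cluster of totals as a covariate, Vegfb had −0.32, Nos3 0.28 and Tek 0.05 on the log2 scale, and 0 of the 10 were called. All 24 skeletal muscle genes had log2 fold changes above 0, with a median of 3.16, 0 were called, and their summed level spanned 1043 to 102171 CPM in the 22°C libraries, against 196 to 8313 CPM in the 29°C libraries. The muscle genes Nos1 (2.79, SE 1.11) and Des (2.63, SE 1.04) stand in the nitric oxide and mural lists. Adipocyte genes, the markers of the labelled tissue, summed to between 34122 and 51263 CPM at 22°C and between 38859 and 52478 CPM at 29°C (1 of 13 called, Lep, named above). Macrophage genes summed to 646 to 1283 and 675 to 1359 CPM (0 of 9 called), and blood genes to 286 to 755 and 319 to 3367 CPM (0 of 6). Epithelial genes summed to 0.295 to 36.7 and 0.0841 to 226 CPM (0 of 3 tested). Lymphocyte genes summed to 2.54 to 22.0 and 2.27 to 15.5 CPM (1 of 6 tested, Cd3e, higher at 22°C). Brown and beige fat genes summed to 71.5 to 241 and 47.2 to 80.4 CPM (3 of 8 tested, Cidea, Cox8b and Otop1, higher at 22°C). In the same list Kcnk3 had 0.31 (SE 0.42) and Prdm16 −0.04 (SE 0.17). Cox8b was highest in 22°C replicates 1 and 7, at 111 and 109 CPM. These mice also had the highest muscle scores (described below), 11.10 and 10.97, and muscle as a source of Cox8b was not tested.

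With the muscle score, the mean log2 CPM of the 24 muscle genes, as a covariate, 0 of the 10 members were called and the log2 fold changes were as follows: Vegfa had −0.36, Kdr −0.28, Emcn −0.25, Flt1 −0.24, Pecam1 −0.22, Cdh5 −0.18, Tek −0.16 and Vegfb −0.14, Nos3 had 0.16, and Vwf turned to −0.105. Those of Pecam1, Cdh5, Tek, Flt1 and Nos3 were over 1.5 times as large as without the covariate, and that of Vegfb was smaller. Of the 10 relations with the muscle score, 0 passed by Pearson r. Vegfb came nearest (r = −0.61, permutation P-adj = 0.0746, rho = −0.70, permutation P-adj = 0.0326), with r = −0.42 without the 2 mice farthest from the median score and −0.47 and −0.46 within 22°C and 29°C. By Pearson r, Vwf followed the muscle score at 29°C (r = 0.94, rho = 0.83, n = 6) and not at 22°C (r = 0.07). At 29°C the exact permutation P-adj was 0.0486 for r and 0.233 for rho. 29°C replicate 6 had both the lowest muscle score and the lowest Vwf of that group. Whether the 2 temperatures differ in this relation was not tested.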

How the data were processed

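Total RNA of gluteal WAT was sequenced, 1 library per mouse. The authors aligned reads with STAR 2.7.5a and deposited whole-number counts per gene from featureCounts (GRCm39 per the submitters' processing notes), and regularized log2 values that the authors made with DESeq2. Annotation and strand setting are not given in the sources used here. The deposited counts name genes by identifier, and 34006 of 34419 matched a symbol in GENCODE vM21. 

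The 10 members and all lists were chosen with earlier results of these data known. Counts were tested with edgeR 4.0.16 (R 4.3.3; TMM, filterByExpr, quasi-likelihood F test, no covariates) over all 13 libraries, with Benjamini-Hochberg adjustment over 17779 genes and calls at P-adj below 0.1, the threshold and contrast of the study. The SE was obtained from the F statistic as |log2 fold change| over its root. CPM values use TMM library sizes; log2 CPM has a prior count of 2. A floor of 3 counts corresponds to between 0.119 and 0.134 CPM, and every member had at least 401 counts in every library; such floors cover counting error only. On simulated data for this comparison (17779 genes), 60 of 87 genes changed by 1 on the log2 scale were called. Of 113 genes changed by 2, 102 were called, and there were 14 false calls in all. Both changes were larger than that of any member, so these rates do not cover the members. No 2 libraries agreed within sampling noise (lowest chi-square per gene 15.5 over 78 pairs). The mice were housed singly, and the labels number replicates without naming litters. The p-values rest on the spread between these mice, whose litters are not known.

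Ratios and correlations used permutation tests in scipy 1.17.1 (exact for under 8 libraries and for ratios, otherwise 100000 resamples), all two-sided. Alternatives were DESeq2 1.42.0, its size factors in edgeR, other count filters (none, or a mean of at least 10), robust dispersion, a replicate block, each mouse left out, muscle score or cluster of library totals as a covariate, muscle genes removed, the higher cluster of totals only, limma 3.58.1 on the deposited log2 values, a prior count of 0.5 for ratios, and P-adj below 0.05. Named genes were the 10 members, from each list the called genes and, where described, the most abundant, and the 3 genes nearest each member. Transcript lengths come from GENCODE vM21 (GRCm38), used without coordinates, and promoter sequences from RefSeq (GRCm38.p6).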

Additional observations from a re-analysis of the deposited data

Results flagged for a closer look

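Of 42 groups of samples examined for a value set apart from its neighbours (Dixon's test at the 95% level), 2 held such a value, and chance alone gives about 1 in 20. Vegfb in 22°C replicate 3 was 255 CPM, with 209 CPM as the next highest of its group (gap 0.614 of the range). The same mouse had the lowest endothelial score of the 13, 4.57, and the lowest Pecam1, Emcn and Tek, at 96.5, 18.2 and 44.9 CPM, and its muscle score was 5.21. Vcam1 in 22°C replicate 6 was 17.5 CPM, with 13.1 CPM as the next (gap 0.569 of the range).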

How the results depend on the processing

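Over 25 alternatives for each of the 10 members, 250 values in all, 14 changed sign and 1 passed the threshold. The alternatives are not independent checks. The threshold of 0.05 keeps the main fit, so no sign could change there, and the 2 settings on library totals gave nearly equal values (Vegfb −0.322 and −0.330). The log2 fold changes of Pecam1, Cdh5, Emcn, Kdr, Flt1, Vegfa and Vegfb stayed below 0 under all 25, but their sizes moved: with each mouse left out, Cdh5 ran from −0.18 to −0.04, Flt1 from −0.22 to −0.08 and Pecam1 from −0.21 to −0.09. Vwf turned to −0.103 with the replicate block, −0.105 with the muscle covariate and −0.0002 with limma, and ran from −0.087 to 0.10 when each mouse was left out. Nos3 ran from −0.025 to 0.12 with each mouse left out. Tek turned to 0.051 with the cluster of totals as a covariate and to 0.043 in the higher cluster only. The ratio of Vegfa to Vegfb differed by 0.060 in the higher cluster only and by −0.16 to 0.018 with each mouse left out. The number of members called ran from 0 to 1 with each mouse left out and was 0 under all other alternatives.

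Among the wider vascular genes, 7 were called. The number was 15 with DESeq2, which called 10.2% of all the genes it tested. It was 2 without a filter and 2 with the muscle covariate. With the cluster of totals as a covariate it was 1, and in the higher cluster only 1. At P-adj below 0.05 it was 2, and with each mouse left out between 2 and 10. Over all genes, 345 were called in the main comparison, 1676 with DESeq2, 42 without a filter, 41 with the muscle covariate, 4 with the cluster of totals as a covariate, and from 32 (without 29°C replicate 3) to 652 (without 22°C replicate 6) with each mouse left out. Of the relations with the endothelial score, 6 passed by Pearson r. By the same measure 1 did within 22°C, 3 within 29°C and 3 in the higher cluster of totals, an alternative chosen after seeing the data. Of those with the muscle score, 0 passed by Pearson r, while 1 did within 29°C and 1 in the higher cluster of totals. By Spearman rho no relation passed within either temperature. The causes of these changes were not tested, and the fits on fewer mice differ in the number of mice as well. In the higher cluster only, 2 mice stood against 6, and an exact test of a ratio there cannot give a p below 0.0357.

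The labels do not say that a replicate number marks a shared litter or batch, and not every same-numbered pair had deviations correlated over 0.1, so the mice were not treated as paired. The correlation was over 0.1 in 5 of 6 pairs, and 4 of 6 22°C mice correlated best with their own number, which hints at a pairing. With the replicate block 0 members were called, and 214 genes overall. Of the wider vascular genes 4 were called, Tfpi, Thbd and Chrdl1 (edgeR P-adj = 0.016 each) and Col18a1 (0.0335), whereas Lep (0.121), Vcam1 (0.138) and P4ha1 (0.113) did not pass.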
